A study of Caenorhabditis elegans with 5 samples.

Results

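The major sperm protein (msp) genes of Caenorhabditis elegans were taken as every gene in the deposited tables whose WormBase sequence name carries a gene name of msp- and a number. The rule found 35 of 45461 listed genes, 31 called protein coding and 4 called pseudogenes in the RefSeq annotation of WBcel235. MSP is the main cytoskeletal protein of nematode sperm, where its filaments drive the crawling of the cell in place of actin. Sperm also release MSP, and the released protein signals to oocytes to resume meiosis and to the gonadal sheath to contract. In hermaphrodites the germ line makes sperm in the last larval stage and then switches to oocytes, and msp mRNA is made in spermatocytes, not in mature sperm.

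The study sequenced RNA from whole animals kept at 20 °C, with 1 library for each of 5 groups and ca. 3000 animals of 2 pooled experiments behind each library. Young adult animals (day 1 of adulthood) and control animals (day 3) were fed bacteria with the empty L4440 vector. Other animals were fed gld-1 RNAi bacteria and collected on day 3 (the day 3 RNAi library). The last 2 groups, gld-1 RNAi animals labelled as day 4, had spent 48 h without food (fasted) or on L4440 bacteria (fed). The labels place larvae on gld-1 RNAi food in the protocol and adults after day 1 in the sample description, which leaves the length of the treatment unsettled. As background, the RNA-binding protein GLD-1 promotes sperm fate in the hermaphrodite germ line, and without it germ cells on the way to oocytes form a tumour.

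The libraries held 13803289 to 27598482 reads. Ribosomal RNA took 3.51% of the young adult reads and 25.4% to 27.8% of the others, so levels are given as reads per 1000000 reads outside rRNA (RPM). On a common scale gld-1 stood at 17593 in the young adult, 20340 in the control, 1994 in the day 3 RNAi, 3061 in the fed library and 1592 in the fasted one. Pools of 1 library per group allow no test, and no p-value was computed. Intervals are exact 95% intervals and cover counting error only, not the spread between pools of animals. In whole animals, fewer sperm-forming cells and less msp RNA per cell cannot be told apart.

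The msp genes were abundant in the young adult library and close to absent from the other 4. Summed over the 35 genes there were 16033 reads in the young adult, 11 in the control, 107 in the day 3 RNAi, 196 in the fed library and 9 in the fasted one. The levels were 1077 RPM (1061 to 1094), 0.553 (0.276 to 0.989), 5.20 (4.26 to 6.28), 9.81 (8.49 to 11.3) and 0.884 (0.404 to 1.68) in the same order. The order of the levels was thus young adult, fed, day 3 RNAi, fasted and control, and only the intervals of the last 2 overlapped. Summing removes the question of how reads that match several near-identical copies were shared between them, though not of how many such reads were left uncounted.

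**Figure D1:**
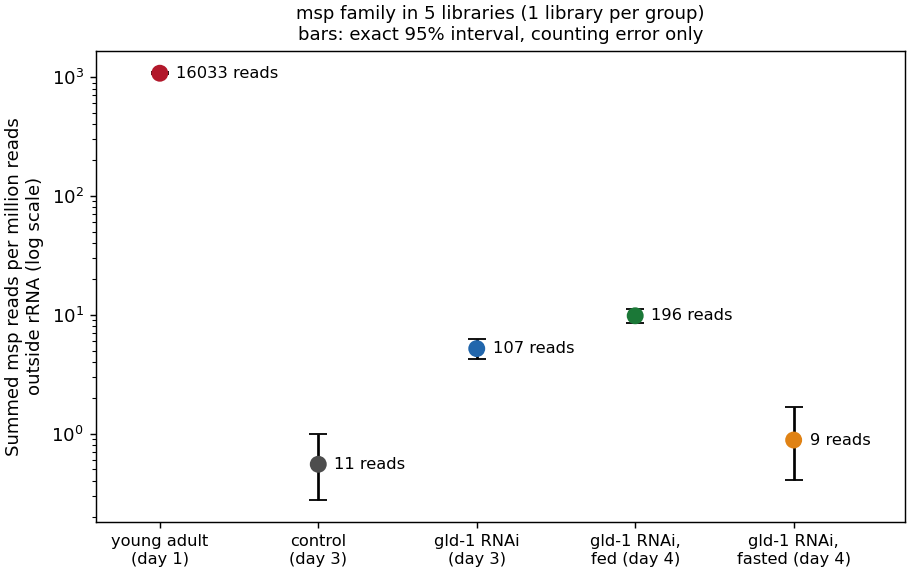
Summed reads of the 35 msp genes in RPM, outside rRNA (log scale) in the 5 libraries, 1 point per library with its exact 95% counting interval and its number of reads. The young adult library stands at 1077 and the other libraries between 0.553 and 9.81.

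Among themselves, the members spanned a wide range in the young adult library. Of the 31 coding genes 28 have a span of 384 bases, and all 31 are single exons, so reads of those 28 can be compared without a length correction. Reads reached 1185 in msp-49 (C34F11.6, 207 RPM per kb) and were as few as 3 in msp-113 (ZK354.4, 0.525 RPM per kb), both genes of 384 bases. In all, 17 members had at least 500 reads, 24 had at least 100, and 6 had 3 or fewer. The 8 leading members were msp-49 (1185), msp-33 (R05F9.8, 1146), msp-50 (C34F11.4, 1125), msp-64 (ZK1248.6, 1045), msp-36 (C04G2.4, 1006), msp-59 (ZK354.11, 829), msp-19 (F36H12.7, 820) and msp-152 (ZK546.6, 753). The counting interval of msp-49 (1118 to 1254 reads) overlapped those of msp-33 and msp-50 but not that of msp-152 (700 to 809), and the 8 together held 49.3% of the family's reads. At the low end msp-74 (F09C12.7) had 1 read, msp-113 and msp-32 (R05F9.3) had 3 each, and msp-58 (ZK354.10) had no read in any library.

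The annotated pseudogenes were not all silent in this count. msp-71 (F59A6.8) held 52 reads in the young adult library and msp-42 (F26G1.8) held 33. msp-52 (F36H12.6) and msp-37 (K08F4.10) had none there. Together the pseudogenes made up 0.530% of the family's young adult reads, and reads from a coding copy counted on a pseudogene cannot be told apart from its own. HTSeq, which the authors used, by default leaves out reads that align to several places, and no source used here states whether it was run so. Differences between single copies are uncertain for all members.

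Outside the young adult library the same members had few reads or none. In the order control, day 3 RNAi, fed and fasted, msp-49 had 0, 8, 2 and 0 reads, and msp-33 had 0, 6, 9 and 2. msp-50 had 4, 7, 14 and 2 reads, and msp-64 had 0, 5, 10 and 0. msp-36 had 0, 8, 10 and 0 reads, and msp-59 had 0, 5, 10 and 0. These 6 were thus at 0 in the control except for msp-50, and the most any of them reached outside the young adult library was 14. msp-19 had 0, 6, 11 and 0 reads, msp-152 had 0, 5, 4 and 0, and msp-38, among the leading members of the day 3 RNAi library, had 577 in the young adult and 0, 7, 8 and 1 in the others. At the low end msp-74 and msp-113 had reads in the young adult library alone, while msp-32 had 1, 3, 2 and 0 elsewhere. Over the family 3 members had no read in the young adult, 30 in the control, 8 in the day 3 RNAi, 4 in the fed library and 28 in the fasted one. Thinned to the depth of the fasted library, 12.8 members would be expected at 0 in the day 3 RNAi library and 8.01 in the fed one. A count of 0 still allows up to 3 reads, which is 0.151 RPM in the control and 0.295 in the fasted library.

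**Figure D2:**
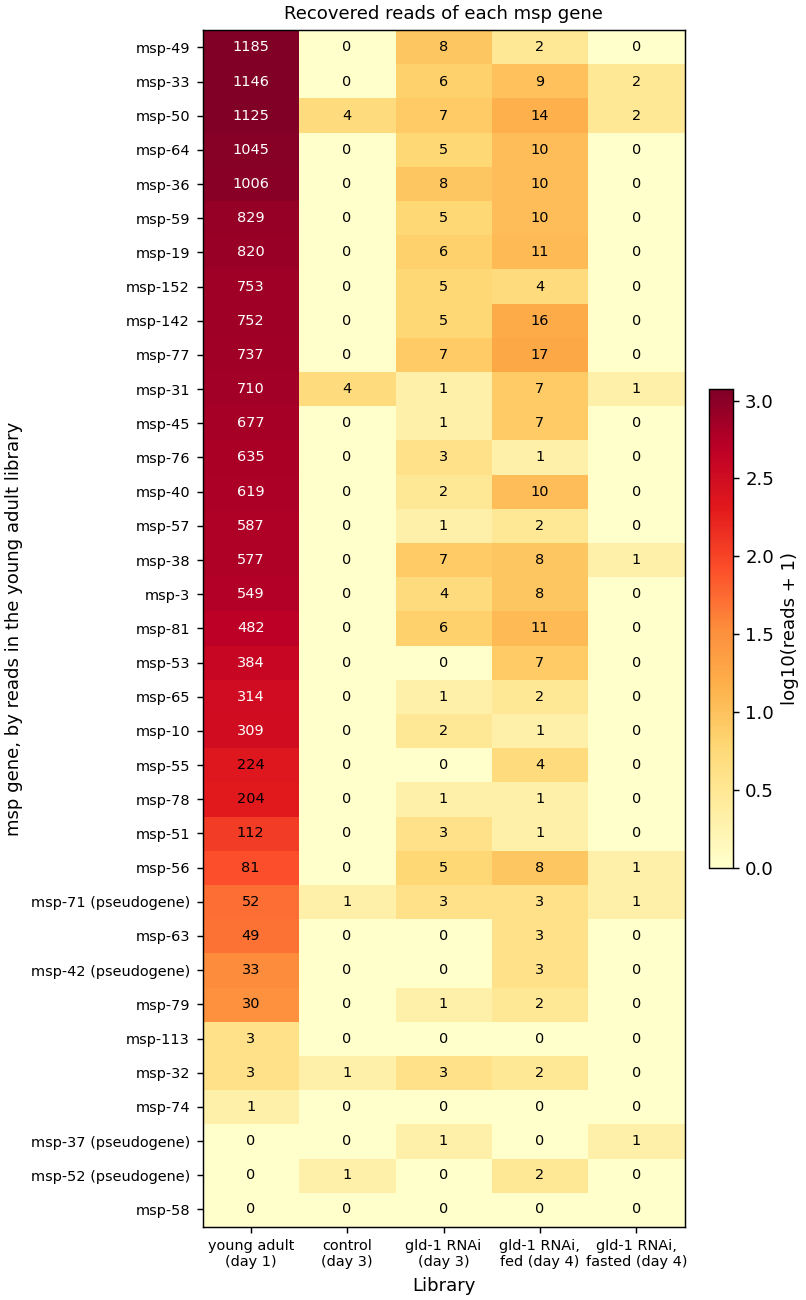
Recovered reads of each of the 35 msp genes (rows, ordered by the young adult library) in each of the 5 libraries (columns), with the colour on a log10(reads + 1) scale. Values in the first column reach 1185, and no value in the other columns exceeds 17.

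In RefSeq's WBcel235 annotation the members lie on chromosomes II (15 genes) and IV (20 genes). Allowing at most 3 other genes in between, 27 members fall into 12 runs of 2 or 3 neighbours and 8 stand alone. Chromosome II held 54.3% (53.5% to 55.0%) of the family's young adult reads with the smaller number of genes. Some neighbours had like counts, such as msp-49 and msp-50, or msp-31 (R05F9.13, 710 reads, 659 to 764) and msp-152 (753 reads, 700 to 809). Others differed widely, such as msp-33 with 1146 and msp-32 with 3 reads, or msp-142 (K05F1.2) with 752 and msp-63 (K05F1.7) with 49. The msp-domain genes ssp-36 and ssp-32 lie within 2 genes of msp-79 and msp-77.

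**Figure D3:**
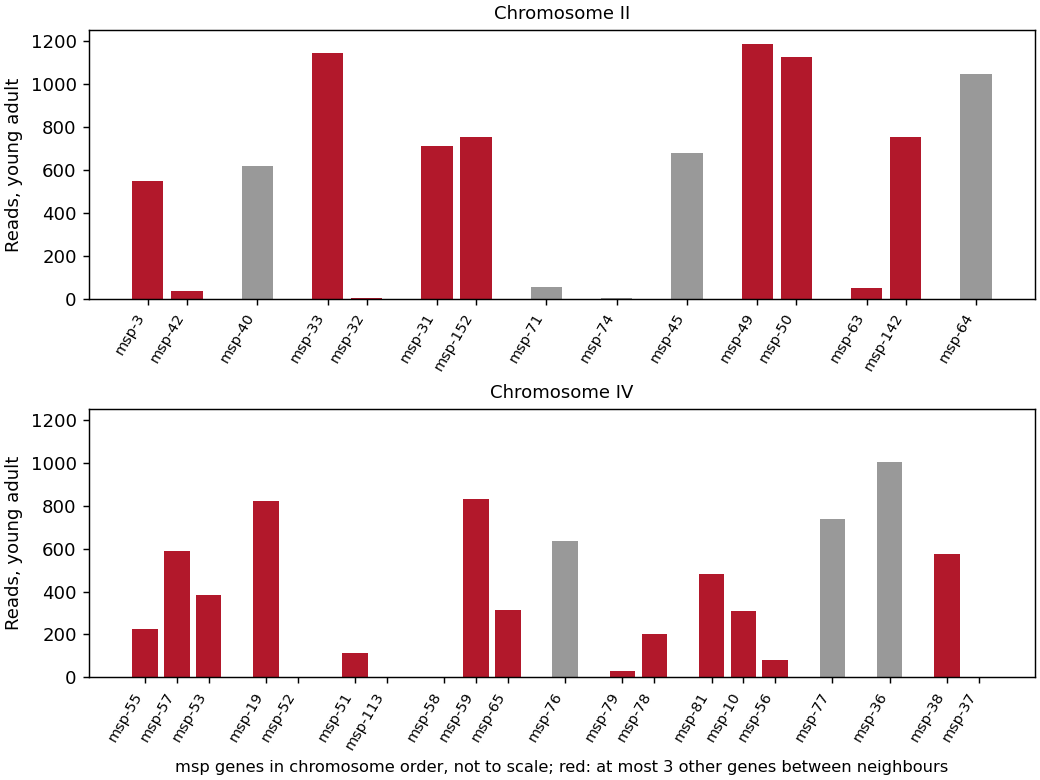
Reads of each msp gene in the young adult library, in the genes' order on chromosome II (top) and IV (bottom), not to scale; red bars are genes with at most 3 other genes between them and the next msp gene, grey bars stand alone. High and low copies occur side by side, as msp-33 (1146 reads) and msp-32 (3 reads) do.

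Young adult against gld-1 RNAi animals of day 3 compares groups in which age and RNAi differ together, and the 2 cannot be told apart. The summed msp level was 199.8-fold lower in the day 3 RNAi library (165 to 244), a log2 ratio of -7.64 on the authors' scaling. Of the 33 members with a read in either library, 32 had fewer normalized reads in the day 3 RNAi library, and only the pseudogene msp-37 had more, 1 read against 0. At least 2-fold lower were 31 of the 33, where 27.9% of all genes with a read were. The counting interval lay wholly beyond 2-fold for 29 of the 33, against 15.4% of all genes. None was at least 2-fold higher, beside 21.1% of all genes, or 8.47% by the interval.

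The leading members show the size of the difference. msp-49 had 1185 reads in the young adult and 8 in the day 3 RNAi library, a log2 fold of -7.43 (normalized reads plus 1). msp-33 had 1146 and 6 reads (log2 fold -7.74) and msp-64 had 1045 and 5 (log2 fold -7.82). msp-53 (R13H9.4) had 384 reads and none, and was at least 171-fold lower against a floor of 3 reads. msp-55 (C09B9.6, 224 and 0 reads) was at least 99.6-fold lower on the same floor. Of the 24 members with at least 100 young adult reads, the smallest difference was in msp-51 (ZK354.5), with 112 and 3 reads and a log2 fold of -5.18. Below that number of reads, msp-56 (K07F5.3) had 81 and 5 (-4.15) and msp-71 had 52 and 3 (-4.08). msp-32, with 3 reads in both libraries, could not be said to differ at this depth.

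At a mean of at least 50 normalized reads 24 members were measured and 24 were at least 2-fold lower, beside 23.8% of all 10795 measured genes (17.4% were higher). These 24 passed the minimum through the young adult library alone, so the count is no support for a difference. Just inside the minimum lay msp-51 and msp-78 (T13F2.11), with means of 66.0 and 118, and just outside it msp-56 and msp-71, with 48.9 and 31.3. The measured members had a median log2 fold of -7.46 (-7.38 with zeros at the floor), beside 0.12 for all measured genes. Of the 100 measured genes with the lowest folds 18 were msp genes. This count and the median rest on the same 24 members, so they are no support either. In the authors' deposited table, 18 of the 33 members with a value had an adjusted p below 0.1, from 0.00401 to 0.0898, as did 0.859% of all genes.

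**Figure D4:**
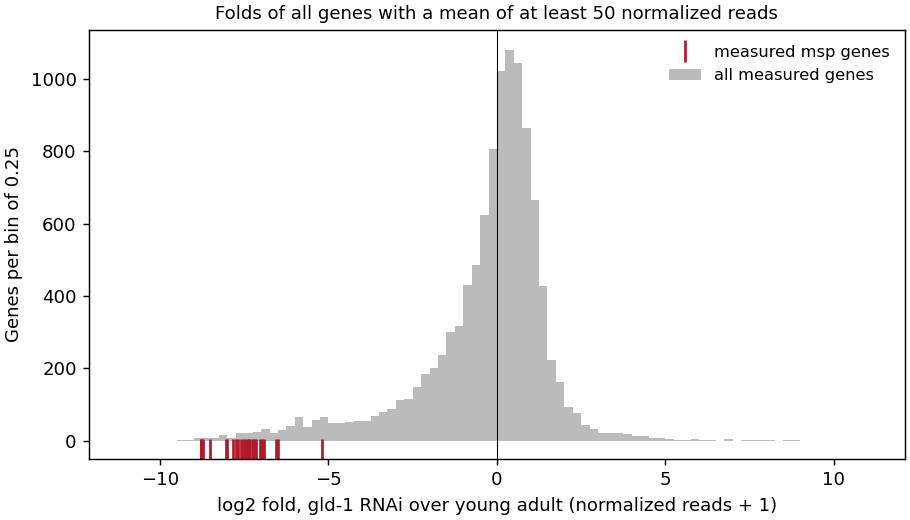
Distribution of log2 folds (day 3 RNAi over young adult, normalized reads plus 1) of the 10795 measured genes, in bins of 0.25 (grey bars), with the 24 measured msp genes as red ticks. The ticks lie between -8.80 and -5.18, while the median of all genes is 0.12.

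The day 3 control, which had no gld-1 RNAi, was lower still. The summed msp level was 1845-fold lower than in the young adult library (1031 to 3697), and 32 of 33 members with a read were at least 2-fold lower, beside 35.2% of all genes. For 29 the interval lay wholly beyond 2-fold, beside 17.7% of all genes, and none was higher by either rule, beside 15.1% and 7.67%. At a mean of at least 50, which members again passed through the young adult library, 24 of 24 were lower, beside 25.8%, and none higher, beside 16.1%. The members with reads in the control were msp-31 and msp-50, with 4 reads each, and msp-32, msp-71 and msp-52, with 1 each. The other 30 had none. msp-49 was thus at least 500.1-fold and msp-33 at least 484-fold lower against the floor. Of the members seen in the control, msp-31 overlaps aagr-2 on the same strand, a gene with 3208 reads there. The summed adult cuticle markers stood at 2329 RPM in the young adult library and at 26.5 to 116 in the other 4, and the 16 moulting and late larval cuticle genes summed to 651 and 128 to 193 RPM. The second list was mixed: dpy-5 and dpy-13 held 2755 and 2720 of its 9693 young adult reads, while noah-1, noah-2 and mlt-11 were higher in RPM in each other library than in the young adult. The adult cuticle genes col-7 and col-62, with 1206 and 753 young adult reads, had at most 2 reads in any other library. Their part in the msp difference was not tested.

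Between animals of day 3, the day 3 RNAi library held more msp RNA than the control. The sum was 8.86-fold higher (4.76 to 18.3), from 11 to 107 reads. Of the 28 members with a read in either library, 26 were higher and 2, msp-31 and msp-52, lower in normalized reads. At least 2-fold higher were 17 of 28, beside 20.2% of all genes with a read, and 2 were at least 2-fold lower, beside 12.3%. No single member had an interval wholly beyond 2-fold, beside 5.32% of genes in the higher and 3.08% in the lower direction. The most reads in the day 3 RNAi library were 8 in msp-36 and msp-49, from none in the control. Next came 7 in msp-38 (K08F4.8), in msp-77 (F32B6.6), both also from none, and in msp-50, from 4. In the authors' deposited table the lowest adjusted p of any member was 1. The 7 markers of male neurons summed to 1.11 RPM in the control and 3.69 in the day 3 RNAi library, with 4 and 0 of them at 0. Of these, 6 had more reads in the day 3 RNAi library, lov-1 the most with 0 and 27. The exception, cwp-4, had 19 and 13 reads and held most of the 22 marker reads of the control. In the young adult, fed and fasted libraries the sums were 1.75, 2.75 and 2.85 RPM, and cwp-4 held 21 of the 26 young adult reads. The 12 oocyte markers were all at least 2-fold lower in the day 3 RNAi library than in the control, beside 7.99% of all measured genes. They summed to 7266 and 22084 RPM in these libraries. The part of either marker group in the msp difference was not tested.

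Among gld-1 RNAi animals, the fed and fasted libraries differed from the day 3 RNAi library in opposite directions. Both groups were labelled as day 4 and had left the RNAi food, so age, RNAi food and feeding cannot be told apart. A change of 48 h that ended on day 4 would have begun before day 3. From the day 3 RNAi to the fed library the msp sum was 1.95-fold higher (1.54 to 2.50), from 107 to 196 reads. Of 32 members with a read, 25 were higher and 7 lower, and 10 were at least 2-fold higher, beside 11.3% of all genes with a read. The 1 at least 2-fold lower, beside 4.96%, was msp-49. The fed library was led by msp-77 with 17, msp-142 with 16 and msp-50 with 14 reads, from 7, 5 and 7. msp-49, the leading member of the young adult library, had 8 and 2 reads. No member had an interval wholly beyond 2-fold, and 0.0641% of genes did in each direction.

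From the day 3 RNAi to the fasted library the sum was 5.79-fold lower, with 107 and 9 reads and an interval of the log2 ratio from -3.70 to -1.56. At least 2-fold lower were 16 of 27 members with a read, beside 12.8% of all genes, and none was higher, beside 7.15%. No interval lay wholly beyond 2-fold, beside 1.28% of genes lower and 0.205% higher. From the fed to the fasted library, which are both of day 4, the sum was 11.1-fold lower (5.74 to 24.7), and 25 of 32 members were at least 2-fold lower, beside 12.5%, and 1 was higher, beside 8.27%. msp-77, with 17 and 0 reads, had the only interval wholly beyond 2-fold among members, beside 1.12% of all genes lower and 0.263% higher. The 9 reads of the fasted library were spread over msp-33 and msp-50 with 2 each and 5 other members with 1 each. The 5 tables share libraries, the day 3 RNAi library standing in 4 of them, so these comparisons are not independent of each other. gld-1 itself was also lower in the fasted than in the fed library, as given above, and its part was not tested. Oocyte markers stood at 5225 RPM in the fed library and 9368 in the fasted one. Of the 12, 5 were at least 2-fold higher, where 8.27% of all genes with a read were without a minimum. Their median log2 fold was 0.89, against 0.036 for all measured genes, and their part was not tested.

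The 8 leading members were chosen by their young adult reads, which makes their share highest in that library by choice. They held 49.3% of its msp reads and 46.7% (37.02% to 56.6%) of those in the day 3 RNAi library. In the fed library they held 35.7% (29.01% to 42.9%), an interval that overlapped that of the day 3 RNAi library. With few msp reads in the control and fasted libraries, the shares there were 36.4% (10.9% to 69.2%) and 44.4% (13.7% to 78.8%). Over the 24 members with at least 100 young adult reads, the reads in the day 3 RNAi library were 0% to 2.68% of the young adult reads (median 0.613%), and in the fed library 0.157% to 2.31% (median 1.01%).

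Other genes of the sperm programme differed in their pattern over the libraries. The 16 msd and ssp genes, small msp-domain proteins of sperm, summed to 347 RPM in the young adult and 5.53, 7.58, 9.01 and 3.73 in the control, day 3 RNAi, fed and fasted libraries, so the control stood above the fasted library, unlike for msp. Of these genes ssp-37 held 96 of the 110 control reads and was at 5.17 RPM in the young adult and 4.82 in the control. With the same minimum mean, 10 were measured and 10 were at least 2-fold lower in the day 3 RNAi than in the young adult library (median log2 fold -6.50, against 0.12 for all genes). Most passed that minimum through the young adult library, so this count is no support. msd-4 (C35D10.11) had 1553, 1, 9, 20 and 3 reads in these libraries. The protein phosphatase genes gsp-3 and gsp-4, needed for sperm chromatin and motility, had 866 and 770 young adult reads. In the control they had 0 and 3, in the day 3 RNAi library 9 and 11, in the fed library 25 and 31, and in the fasted library 2 and 4. The order of the 5 levels in RPM was that of the msp sum, though the intervals of neighbours among the 3 lowest overlapped, as did those of gsp-3 in the fed and day 3 RNAi libraries. From the young adult to the control library 9 of 10 measured msd and ssp genes were at least 2-fold lower, beside 25.8% of all genes, under the same limit.

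Genes for the packing of MSP into fibrous bodies were mixed, 2 of 5 measured being at least 2-fold lower and 1 higher in the day 3 RNAi than in the young adult library. The shares of all measured genes, for this and the counts below, were 23.8% lower and 17.4% higher. spe-4, a presenilin of the fibrous body organelle, had 158 and 6 reads (log2 fold -4.89), and spe-18 had 783 and 74 (-3.80). spe-6, a casein kinase I-like protein needed for MSP assembly, had 225 and 217 (-0.47). The higher gene was spe-5, with 196 and 585 reads (1.16). spe-39, which had the most young adult reads of this list, had 1083 and 957 (-0.59). Of the markers of spermatogenic cells, which share genes with these lists, 7 of 10 were measured, 4 being at least 2-fold lower and 1 higher (median log2 fold -4.89). Of genes for sperm activation and fertilization 5 of 9 measured were at least 2-fold lower and 1 higher. The latter was fer-1, a ferlin needed for membranous organelle fusion, at 10.9 RPM in the young adult, 1.91 in the control, 22.4 in the day 3 RNAi, 22.7 in the fed library and 16.9 in the fasted one. The myosin VI gene spe-15 stood at 93.3, 11.9, 53.8, 66.2 and 49.4 RPM in the same order. The lower genes among the spermatogenic markers and the activation genes passed the minimum through the young adult library. So did spe-4 in the fibrous body list. These counts are thus no support for a difference. From the young adult to the control library 9 of 9 measured activation genes were at least 2-fold lower. So were 7 of 7 spermatogenic markers and 3 of 5 fibrous body genes, beside 25.8% of all measured genes. No measured gene of these lists was at least 2-fold higher, beside 16.1%. Most of the lower genes again passed the minimum through the young adult library, so these counts are no support either.

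Among 7 regulators of germ cell fate and sperm transcription, 3 were at least 2-fold higher and 0 lower from the young adult to the day 3 RNAi library, beside 17.4% and 23.8% of all measured genes. fog-1 and fog-3, an RNA-binding protein and a Tob family protein that commit germ cells to sperm, had log2 folds of 2.34 and 3.35. Of these fog-3 passed the minimum through the day 3 RNAi library alone, so its place in the count is no support. The third, tra-1 (3.08), encodes a transcription factor that promotes female fate. The others were spe-44 (0.37), elt-1 (0.51), fog-2 (0.70) and fem-3 (-0.31). fog-3 had 15 reads in the young adult, 8 in the control, 215 in the day 3 RNAi, 335 in the fed library and 62 in the fasted one. spe-44, a transcription factor of spermatocytes, was at 22.8 RPM in the young adult and 25.3 to 29.5 in the other 4. From the control to the day 3 RNAi library 2 of 7 fate regulators, fog-1 (log2 fold 1.27) and fog-3 (4.46), were at least 2-fold higher. So were 3 of 4 measured activation genes, fer-1 (3.43), spe-15 (2.08) and spe-41 (2.17). Without a minimum, 20.2% of all genes with a read were. fog-3 and fer-1 passed the minimum through the day 3 RNAi library, so they are no support in these counts. Of the other fate regulators tra-1 (0.57), spe-44 (0.09), fog-2 (-0.04), elt-1 (-0.92) and fem-3 (-0.93) did not reach 2-fold, and the list's median was 0.09. In the day 3 RNAi library fog-3 was at 10.4 and fer-1 at 22.4 RPM beside 5.20 for all 35 msp genes together. RPM is not corrected for gene length, so these levels do not rank the genes by amount of RNA.

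**Figure D5:**
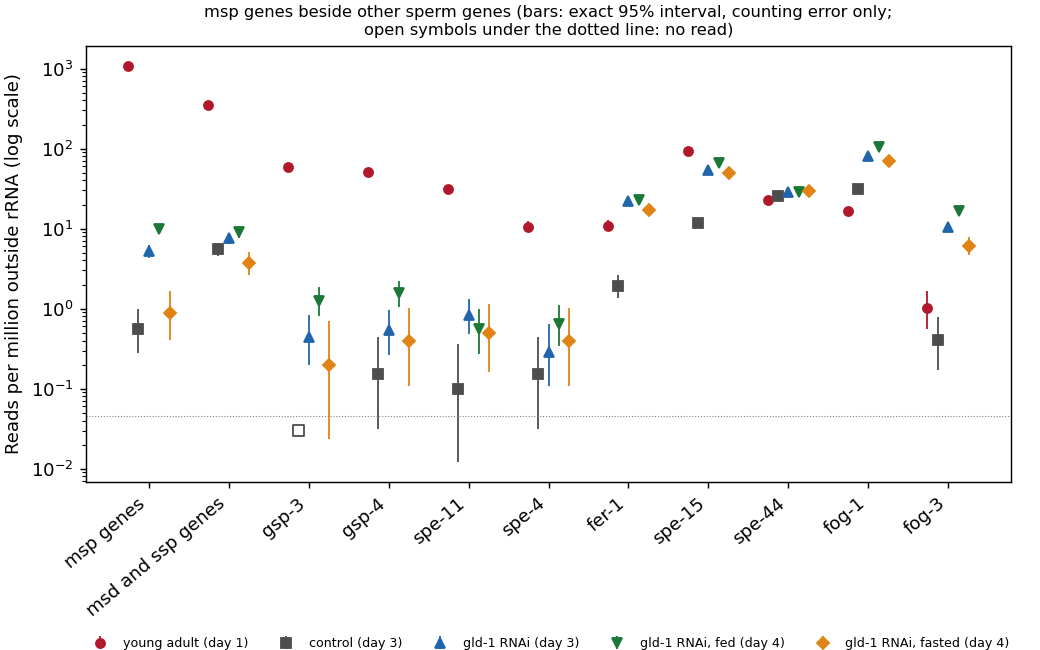
RPM outside rRNA (log scale) of the summed msp genes, the summed msd and ssp genes and 9 single sperm genes, with 1 symbol per library and exact 95% counting intervals; an open symbol marks no read. From msp to spe-4 the young adult library is above all others, and for fer-1, fog-1 and fog-3 the 3 libraries of gld-1 RNAi animals are above it. For fog-1 the control is above the young adult library as well, at 31.4 beside 16.5.

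Genes that receive the MSP signal were all measured. Of 13, 4 were at least 2-fold lower and 1 higher in the day 3 RNAi than in the young adult library, beside 23.8% and 17.4% of all measured genes, which sets the list's lower count close to the background. vab-1, the Eph receptor that binds MSP on oocytes and sheath cells, was the higher one, at 128 RPM in the young adult, 305 in the control, 282 in the day 3 RNAi, 273 in the fed library and 307 in the fasted one. ceh-18, a POU factor of sheath cells, was at 22.2 in the young adult and 5.08 to 7.43 in the others. The 12 oocyte markers summed to 7694 RPM in the young adult and 7266 in the day 3 RNAi library, with 0 of 12 at least 2-fold apart.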

How the data were processed

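Per the submitters' processing notes, reads went through TopHat, HTSeq and DESeq, with no version given. Genome build, annotation, read length, strandedness and the handling of multiply aligned reads are not stated in the labels or files. Per the file headers, the authors deposited 5 tables, each with the normalized signal of 2 libraries (counts per gene after division by DESeq's factor for that pair) and an adjusted p-value. Table names and the libraries that recur between tables fixed which column is which library. The smallest step between values gave back whole reads: 100% of values above 0 were whole within 0.1 read, and 0 genes differed between tables for a recurring library. With 1 library per group no count model was fitted here; the adjusted p-values quoted are the authors', from DESeq on single libraries, and do not measure the spread between pools.

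Of 45461 identifiers 44936 were matched to names and biotypes through RefSeq and Ensembl release 115 (both WBcel235). The other 525 held at most 0.368% of a library's reads. No coordinates are printed, since the build of the files is not known. Folds are log2 of normalized reads plus 1 within a table, which understates low genes. The young adult and control libraries, paired in no table, were scaled by median-of-ratios factors over the 5 libraries. A gene with no read was set against a floor of 3 reads per library. Intervals are exact (Clopper-Pearson for ratios and shares, Poisson for single counts, scipy 1.17.1). The calculations were tested on simulated data.

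The members, the 5 lists of related genes, the 5 marker lists, the naming rule and the alternatives were chosen with earlier results of these data known, and none of the patterns is independent support for those results. Named were the 8 members leading in the young adult and 4 in the gld-1 RNAi library (with ties). Also named were the 2 lowest above 0 (with ties), members with no read at all, and genes of the lists. The list genes named were not always those with the most young adult reads. Members named for a contrast, their neighbourhood or the figures were chosen after their values were seen, as were the genes set beside msp in the last sections, col-7 and col-62. Alternatives were other scalings, minimum means, a pseudocount of 10, a 4-fold threshold, an interval rule, other denominators and sums without some members.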

Additional observations from a re-analysis of the deposited data

Results flagged for a closer look

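The summed msp reads moved in opposite directions in the 2 groups of gld-1 RNAi animals that left the RNAi food, with a log2 ratio of 0.97 from the day 3 RNAi to the fed library (107 to 196 reads) and of -2.53 to the fasted library (107 to 9 reads). The difference between these directions was not tested, since each group is 1 library and both ratios share the day 3 RNAi library. Age and RNAi food also differed from that library.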

How the results depend on the processing

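The 6 ratios of the msp sum kept their direction under all alternatives run: scaling to equal totals, to totals without rRNA or to equal upper quartiles, and sums without the leading member, without pseudogenes or, chosen after seeing the data, without the 3 members that overlap another gene. Their log2 values ranged from -8.07 to -7.51 (young adult to day 3 RNAi), -11.35 to -10.74 (young adult to control), 3.23 to 3.70 (control to day 3 RNAi), 0.88 to 1.005 (day 3 RNAi to fed), -3.01 to -2.44 (day 3 RNAi to fasted) and -3.88 to -3.34 (fed to fasted). Scaling to equal totals moved the median of all genes from 0.12 to -0.33 for young adult to day 3 RNAi, a shift small beside the msp folds. Without a minimum mean, where no member was measured otherwise, counts of members at least 2-fold lower and higher became 2 and 17 from control to day 3 RNAi, 1 and 10 from day 3 RNAi to fed, 16 and 0 from day 3 RNAi to fasted, and 25 and 1 from fed to fasted. At a minimum mean of 10, 2 members were higher in the fed library. These counts rest on members with at most 17 reads and depend on that minimum. With all reads as the denominator the family stood, in RPM, at 1039 in the young adult, 3.88 in the day 3 RNAi and 7.14 in the fed library. Thinned to the shallowest library, 12.8 instead of 8 members would be without a read in the day 3 RNAi and 8.01 instead of 4 in the fed library. No paired analysis was possible because each group has 1 library.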
